A study of Mus musculus with 15 samples.

Results

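The genes described here are the parts of the Wnt signalling pathway that work at and outside the cell surface: the Wnt ligands, their Frizzled receptors and Lrp co-receptors, the secreted inhibitors, the R-spondins with their Lgr receptors, 2 enzymes that act on Wnt proteins, and 3 feedback regulators. They were chosen by name, with a minimum of 50 counts over all libraries. Of 24420 gene symbols in the count table, 52 carried one of the names, and 45 of these reached that minimum over the 15 libraries. The other 7 were Dkk4, Wnt3a, Rspo4, Wnt1, Dkk1, Wnt2 and Wnt8a, with 3 to 27 counts in all, and no level is given for them. All 45 genes were kept by the low-count filter.

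RNA from mouse cerebellum was sequenced in 3 groups of 5 libraries. The 82Q_M120A group carried the Atxn1[82Q] allele, called a knockin in the submitters' design text, together with CalphaLoxM120A, a form of the catalytic subunit of protein kinase A (encoded by Prkaca) with the M120A substitution; it was 8 weeks old, and its strain is labelled as C57BL/6J mixed with FVB/nJ. The 82Q group carried Atxn1[82Q] alone, and the WT group carried neither allele; both were 9 weeks old and FVB/nJ. Expanded Atxn1 causes spinocerebellar ataxia type 1, whose main site in the cerebellum is the Purkinje cell. No group carried the kinase allele alone, so in each comparison with 82Q_M120A the kinase allele, strain and age cannot be told apart. The labels name neither a promoter for the alleles nor a Cre driver, and they do not say whether the 5 libraries of a group came from separate animals, so each p-value refers to the spread among these libraries only.

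Wnt proteins are secreted, lipid-modified signals that bind a Frizzled receptor together with Lrp5 or Lrp6. In the beta-catenin branch this stops the destruction of beta-catenin, which then acts with TCF/LEF factors on target genes; other branches act on the cytoskeleton and on calcium. Secreted Frizzled-related proteins (Sfrp) and Wif1 bind Wnts outside the cell, and some Dickkopf (Dkk) proteins block the Lrp co-receptors. Notum and Trabd2b (also called Tiki2) inactivate Wnts by removing their lipid or by cutting their amino terminus. The ubiquitin ligases Rnf43 and Znrf3 take Frizzleds off the surface, and R-spondins, bound to Lgr4, Lgr5 or Lgr6, hold these ligases back. In the mouse cerebellum, Wnt7a is known as a granule cell signal to mossy fibre terminals, and Wnt3 is known from Purkinje cells.

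The sequences around the starts of 4 of the genes whose level differed from WT in both groups with the 82Q allele, Wnt16, Wnt3, Fzd10 and Fzd9, are shown to place the results in the genome. Each runs from 250 bases before the RefSeq start to 50 after it, 5′ to 3′ on the gene's own strand, on GRCm38.p6 (the mm10 assembly). The gene positions given further below are from GENCODE, whose starts can differ from those of RefSeq. The Fzd10 window, from base 128600856, lies inside the GENCODE gene, which runs from base 128600844. They lie at chr6:22287977-22288276 (plus strand, Wnt16), chr11:103773925-103774224 (plus strand, Wnt3), chr5:128600856-128601155 (plus strand, Fzd10) and chr5:135250998-135251297 (minus strand, Fzd9). The capitals in Wnt16 mark the one motif match among these 4, AGGTCA read as its reverse complement.
Wnt16: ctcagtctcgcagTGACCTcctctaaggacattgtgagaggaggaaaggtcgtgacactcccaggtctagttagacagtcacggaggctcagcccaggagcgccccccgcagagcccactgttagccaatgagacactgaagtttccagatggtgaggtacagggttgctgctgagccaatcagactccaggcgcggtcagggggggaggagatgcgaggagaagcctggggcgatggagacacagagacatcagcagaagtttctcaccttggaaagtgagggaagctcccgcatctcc
Wnt3: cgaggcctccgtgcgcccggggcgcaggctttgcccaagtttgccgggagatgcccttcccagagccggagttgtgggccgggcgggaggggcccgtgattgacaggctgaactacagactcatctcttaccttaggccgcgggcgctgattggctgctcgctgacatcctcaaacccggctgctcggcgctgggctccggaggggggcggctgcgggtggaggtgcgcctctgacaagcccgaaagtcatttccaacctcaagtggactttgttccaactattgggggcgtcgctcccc
Fzd10: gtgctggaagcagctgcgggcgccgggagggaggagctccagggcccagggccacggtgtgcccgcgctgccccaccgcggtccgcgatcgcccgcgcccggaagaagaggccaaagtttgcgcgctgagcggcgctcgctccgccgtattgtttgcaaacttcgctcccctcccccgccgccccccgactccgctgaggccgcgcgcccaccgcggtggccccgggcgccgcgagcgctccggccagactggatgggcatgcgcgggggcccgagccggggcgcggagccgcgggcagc
Fzd9: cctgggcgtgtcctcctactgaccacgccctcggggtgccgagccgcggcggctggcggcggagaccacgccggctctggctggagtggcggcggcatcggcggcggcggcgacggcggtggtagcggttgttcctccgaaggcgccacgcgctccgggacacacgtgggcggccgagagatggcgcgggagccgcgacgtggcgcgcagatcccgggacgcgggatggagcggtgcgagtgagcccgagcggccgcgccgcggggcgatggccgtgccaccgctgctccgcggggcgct
G and C made up 77.7% of the Fzd10 window, 78.0% of the Fzd9 window, 65.7% of the Wnt3 window and 58.0% of the Wnt16 window. Entries were found for 27 of the 45 genes, as 31 windows, beside 32851 windows over all genes. On either strand, CTTTGAT, the TCF/LEF motif, was in 2 of the 31 windows (Wnt11 and Wnt5b) and in 3.73% of all windows. TGAATGAA, a motif of the Atxn1 partner CIC, was in 1 of the 31 (Wif1) and in 1.30% of all windows, and TGAATGGA, also a CIC motif, was in 0 of the 31 and in 1.21% of all. AGGTCA, the nuclear receptor half-site, was in 1 of the 31 (Wnt16) and in 16.3% of all. Each motif was counted by itself, and a match is a description of the letters only.

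The libraries held between 38322749 and 99422994 counts. Atxn1 averaged 53.9 ± 2.14 CPM in 82Q_M120A, 56.5 ± 1.75 CPM in 82Q and 52.9 ± 6.20 CPM in WT (CPM is the count scaled to a common library size with TMM factors; SD, n = 5 per group throughout) and passed the test in no comparison; a total over the gene does not show which allele was read. Prkaca averaged 145 ± 5.54 CPM in 82Q_M120A, against 164 ± 5.76 CPM in 82Q and 168 ± 3.60 CPM in WT. In edgeR's quasi-likelihood test, Prkaca was lower in 82Q_M120A against WT (log2 fold change -0.21, adjusted p = 5.09e-05). It was also lower there against 82Q (-0.18, adjusted p = 0.000633). The summed level of 12 Purkinje cell markers ran from 4143 to 5546 CPM in 82Q_M120A and from 4157 to 5103 CPM in 82Q, against 11102 to 12685 CPM in WT, and all 12 markers were lower in both groups against WT. In bulk tissue, fewer cells of a type and less RNA per cell cannot be told apart. All 8 microglial markers were higher in 82Q against WT, with summed levels of 202 to 214 CPM in 82Q and 128 to 141 CPM in WT, and 6 were higher and 1 lower in 82Q_M120A against WT, where the sum was 190 to 228 CPM in 82Q_M120A. Oligodendrocyte markers were higher against WT, 7 of 7 in 82Q_M120A and 6 of 7 in 82Q, with sums of 6878 to 7501 CPM in 82Q_M120A and 6105 to 7397 CPM in 82Q, against 4968 to 5992 CPM in WT. The sum of 9 astrocyte and Bergmann glia markers was 5105 to 5602 CPM in 82Q_M120A and 5185 to 5328 CPM in 82Q, against 6041 to 6557 CPM in WT. Of these, 2 were higher and 4 lower in 82Q_M120A against WT, and 3 were higher and 4 lower in 82Q against WT. Of 8 molecular layer interneuron and Golgi cell markers, 2 were higher and 4 lower in 82Q_M120A against WT. The part of these cell types in the Wnt gene results was not tested. Of 8 brainstem and cerebellar nuclei markers, 6 averaged under 1 CPM. Summed levels of 8 meninges and fibroblast markers were 184 to 337 CPM in 82Q_M120A, 223 to 410 CPM in 82Q and 194 to 407 CPM in WT. None of these 8 passed the test in any comparison. The libraries also differed in choroid plexus RNA: Ttr, its defining transcript, was at 1510 to 2602 CPM in 7 libraries (1 of 82Q_M120A, 2 of 82Q, 4 of WT) and at 8.30 to 269 CPM in the other 8, and none of the 9 choroid plexus markers passed the test in any comparison.

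Against WT, 7 of the 45 Wnt genes were lower in both groups with the 82Q allele, and 1 was higher in both. Trabd2b fell most, 5.38-fold in 82Q_M120A and 8.61-fold in 82Q, followed by the ligand Wnt16; Wnt3, Rspo3, Fzd10, Lgr6 and Notum were lower and Fzd9 was higher. A second set differed in the comparisons with 82Q_M120A: Lgr4 and Wnt7a were higher and Rnf43, Rspo2, Sfrp1 and Fzd4 lower than in both 82Q and WT. A further 7 genes (Fzd3, Fzd7, Lgr5, Wif1, Wnt7b, Wnt9a and Axin2) were called in 1 comparison each, and 24 of the 45, both co-receptors among them, passed in no comparison. A gene was called when its adjusted p was under 0.05 in edgeR's quasi-likelihood test of all 15 libraries, with Benjamini-Hochberg adjustment over 16808 genes.

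In 82Q_M120A against WT, 19 of the 45 genes were called (42.2%; 6 higher, 13 lower), beside 36.4% of all tested genes (18.6% higher, 17.8% lower). In 82Q against WT, 11 were called (24.4%; 2 higher, 9 lower), beside 18.7% of all tested genes (8.63% higher, 10.1% lower). In 82Q_M120A against 82Q, 7 were called (15.6%; 3 higher, 4 lower), beside 18.9% of all tested genes (10.3% higher, 8.63% lower). All 3 shares of calls are near the background. The share of lower calls was 28.9% of the Wnt genes in 82Q_M120A against WT and 20% in 82Q against WT, above the 17.8% and 10.1% of all genes; no test of that difference was made. The median log2 fold change of the 45 genes was -0.12 in 82Q_M120A against WT, -0.11 in 82Q against WT and -0.07 in 82Q_M120A against 82Q, beside medians of 0.01, 0.01 and -0.00 over all tested genes. In 82Q_M120A against WT, 15 of the 45 genes had groups without overlap (33.3%; 4 higher, 11 lower), beside 25.3% of all tested genes (12.4% higher, 12.9% lower). In 82Q against WT these were 8 (17.8%; 1 higher, 7 lower), beside 16.6% (6.81% higher, 9.79% lower), and in 82Q_M120A against 82Q they were 3 (6.67%; 2 higher, 1 lower), beside 12.1% (6.63% higher, 5.5% lower). These comparisons share their samples, so each is given by its own values.

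**Figure D1:**
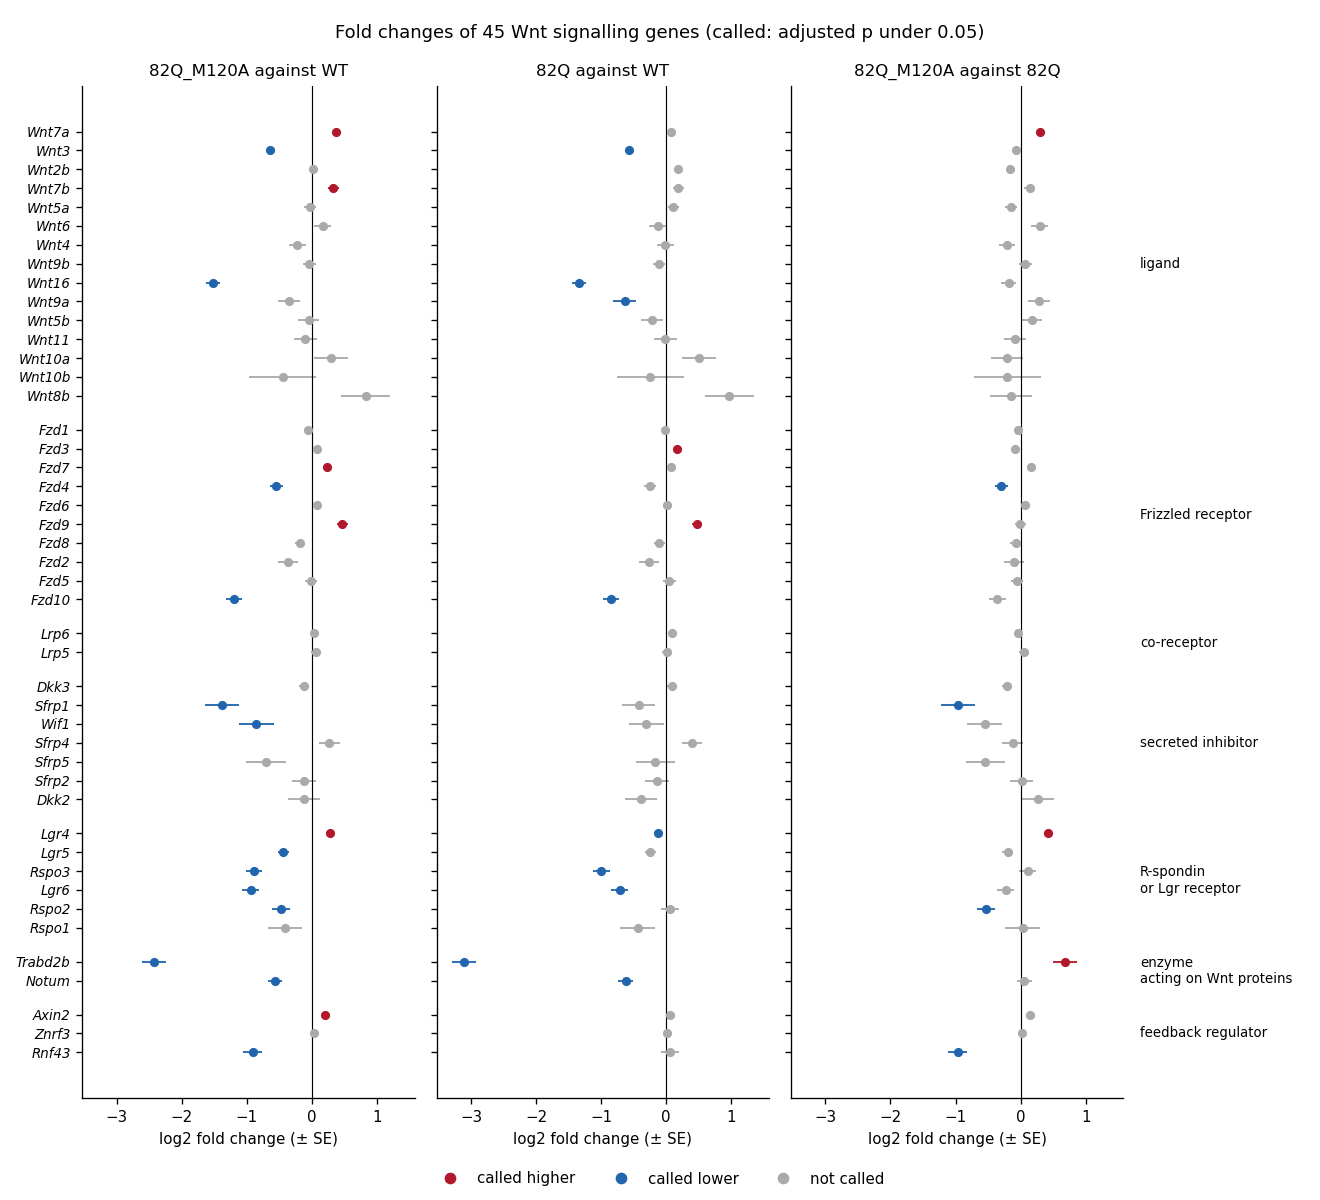
Log2 fold change of the 45 Wnt genes (points, with the approximate SE as bars) in 82Q_M120A against WT, 82Q against WT and 82Q_M120A against 82Q, grouped by role. Called genes are red where higher and blue where lower, and grey genes were not called; Trabd2b lies farthest from 0 in both comparisons with WT, at -2.43 and -3.11.

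Of the 15 ligands, 2 were higher and 2 lower in 82Q_M120A against WT, 3 were lower in 82Q against WT, and 1 was higher in 82Q_M120A against 82Q. Wnt16 (chr6:22288227-22298522, mm10), a ligand known from bone and skin, had 1.40, 1.16, 1.54, 1.12 and 1.46 CPM in the 82Q_M120A libraries, 1.46, 1.39, 1.68, 1.53 and 1.56 CPM in the 82Q libraries, and 4.28, 3.93, 3.90, 4.0 and 3.10 CPM in the WT libraries. All 10 libraries with the 82Q allele lay below all 5 WT libraries. Its log2 fold change was -1.52 ± 0.11 (SE; adjusted p = 5.67e-09) in 82Q_M120A against WT and -1.34 ± 0.11 (adjusted p = 4.11e-08) in 82Q against WT. The adjusted p between 82Q_M120A and 82Q was 0.271.

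Wnt3 (chr11:103774150-103817957) was the most abundant, per length of exon, of the ligands that fell. It had 13.4, 14.0, 12.1, 12.1 and 12.2 CPM in 82Q_M120A, 13.9, 14.0, 11.5, 13.3 and 14.2 CPM in 82Q, and 19.95, 19.5, 21.4, 20.03 and 19.0 CPM in WT. Neither group with the 82Q allele overlapped WT. Relative to WT, the log2 fold change was -0.65 ± 0.06 (adjusted p = 1.57e-07) in 82Q_M120A against WT and -0.58 ± 0.06 (adjusted p = 1.04e-06) in 82Q against WT. Wnt3 is known from Purkinje cells, and the Purkinje markers moved the same way; their part in the Wnt3 values was not tested. Wnt9a was at 1.49, 1.29, 1.47, 0.937 and 1.1 CPM in 82Q_M120A, 1.02, 1.31, 0.729, 1.09 and 1.04 CPM in 82Q, and 1.54, 2.05, 1.82, 1.28 and 1.36 CPM in WT. It was called lower in 82Q against WT (log2 fold change -0.64 ± 0.17, adjusted p = 0.0140), although 82Q-2 lay above the lowest WT library.

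Wnt7a (chr6:91363981-91411363), which granule cells express, was the most abundant ligand per length of exon and was higher in 82Q_M120A. It had 75.3, 91.3, 80.02, 91.0 and 86.2 CPM in 82Q_M120A, 70.7, 66.8, 64.7, 73.0 and 70.8 CPM in 82Q, and 64.6, 67.1, 62.4, 73.2 and 60.8 CPM in WT. The lowest 82Q_M120A library lay above every 82Q and WT library. The log2 fold change was 0.37 ± 0.06 (adjusted p = 8.39e-05) against WT and 0.29 ± 0.06 (adjusted p = 0.00164) against 82Q. Of 8 granule cell markers, 5 were higher and 1 lower in 82Q_M120A against WT, with summed levels of 6561 to 7220 CPM in 82Q_M120A, 6011 to 6608 CPM in 82Q and 5851 to 6800 CPM in WT; their part in the Wnt7a values was not tested. Its close relative Wnt7b was at 9.13 to 11.6 CPM in 82Q_M120A, 8.47 to 10.8 CPM in 82Q and 6.86 to 9.48 CPM in WT. Wnt7b was higher in 82Q_M120A against WT (0.33 ± 0.09, adjusted p = 0.00664), with groups that overlapped.

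The other 10 ligands passed in no comparison. Wnt2b, with 9.65 ± 0.379 CPM in 82Q_M120A, 10.8 ± 0.919 CPM in 82Q and 9.54 ± 0.659 CPM in WT, came nearest (adjusted p = 0.0527 in 82Q against WT). Wnt5a, a ligand of the beta-catenin-independent branch, was at 6.49 ± 0.561 CPM in 82Q_M120A, 7.17 ± 0.629 CPM in 82Q and 6.64 ± 0.935 CPM in WT. Wnt8b was the least abundant, with 2 to 22 counts a library, so that a change in it would be hard to detect at this depth.

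**Figure D2:**
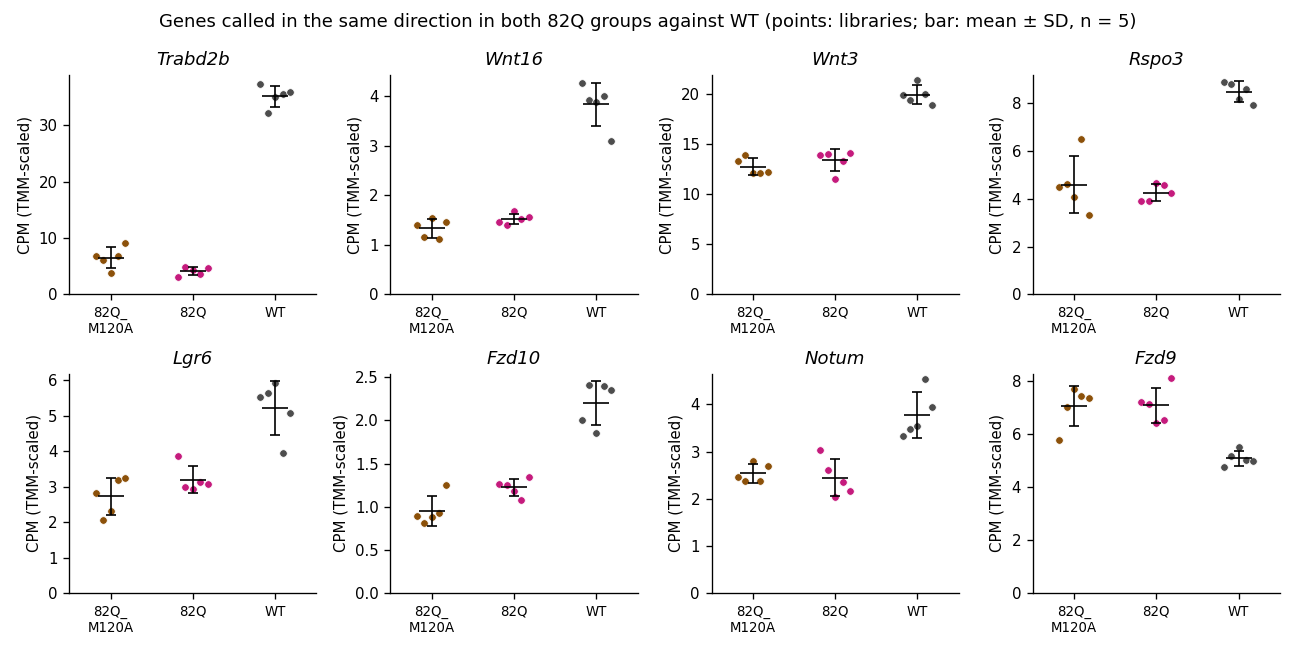
CPM in each library (points) of the 8 Wnt genes called in the same direction against WT in both groups with the 82Q allele, with group means and SD, groups from left to right 82Q_M120A, 82Q and WT. Trabd2b sits between 3.12 and 9.16 CPM in the 10 libraries with the allele and between 32.3 and 37.3 CPM in WT.

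Of the 10 Frizzled receptors, 2 were higher and 2 lower in 82Q_M120A against WT, 2 were higher and 1 lower in 82Q against WT, and 1 was lower in 82Q_M120A against 82Q. Fzd10 (chr5:128600844-128604093) had 0.894, 0.816, 0.878, 0.923 and 1.25 CPM in 82Q_M120A, 1.26, 1.25, 1.18, 1.08 and 1.35 CPM in 82Q, and 2.0, 2.40, 1.86, 2.40 and 2.35 CPM in WT. Every WT library lay above all others, and 82Q_M120A-5 alone of its group lay among the 82Q libraries. The log2 fold change was -1.20 ± 0.12 (adjusted p = 6.97e-07) in 82Q_M120A against WT and -0.84 ± 0.12 (adjusted p = 6.84e-05) in 82Q against WT, and the adjusted p between 82Q_M120A and 82Q was 0.0568. Fzd9 (chr5:135248938-135251230) moved the other way. It had 5.78, 7.02, 7.70, 7.41 and 7.34 CPM in 82Q_M120A, 7.19, 7.11, 6.41, 6.54 and 8.11 CPM in 82Q, and 4.76, 5.15, 5.52, 5.03 and 4.97 CPM in WT, without overlap with WT. Its log2 fold change was 0.47 ± 0.08 in both comparisons with WT (adjusted p = 0.000226 for 82Q_M120A and 0.000410 for 82Q).

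The abundant Frizzleds changed little. Fzd1, the most abundant per length of exon of all 45 genes, was at 101 ± 10.1 CPM in 82Q_M120A, 105 ± 5.24 CPM in 82Q and 105 ± 6.03 CPM in WT, with adjusted p from 0.443 to 0.909. Fzd3, a receptor known for axon guidance, was at 85.6 to 93.2 CPM in 82Q_M120A, 86.3 to 103 CPM in 82Q and 80.6 to 89.2 CPM in WT, and was called higher in 82Q against WT (0.16 ± 0.04, adjusted p = 0.0157) with groups that overlapped. Fzd7 (chr1:59482424-59486955) had 81.3, 74.9, 80.1, 81.6 and 82.9 CPM in 82Q_M120A, 74.6, 71.3, 69.7, 76.9 and 67.1 CPM in 82Q, and 64.6, 67.1, 64.6, 81.9 and 62.9 CPM in WT. It was called higher in 82Q_M120A against WT (0.23 ± 0.06, adjusted p = 0.00619), but WT-4 lay among the 82Q_M120A libraries. In the 8 libraries with Ttr under 300 CPM, where WT-4 is the only WT library, the direction turned (-0.04, adjusted p = 0.804).

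Fzd4 (chr7:89404355-89413134), a receptor of brain endothelium, had 10.6, 10.6, 8.98, 9.69 and 9.56 CPM in 82Q_M120A, 10.3, 12.8, 12.9, 10.8 and 13.8 CPM in 82Q, and 14.8, 14.8, 17.1, 11.3 and 14.2 CPM in WT. It was lower in 82Q_M120A against WT (-0.54 ± 0.10, adjusted p = 0.000350) and against 82Q (-0.29 ± 0.10, adjusted p = 0.0457). The lowest WT library, WT-4, was also the WT library with 18.3 CPM of Ttr. With a choroid plexus score as a covariate the difference against WT was -0.36 (adjusted p = 0.00197) and that against 82Q no longer passed (-0.18, adjusted p = 0.0773). In the 8 libraries with Ttr under 300 CPM, neither passed (-0.22, adjusted p = 0.333 against WT; -0.23, adjusted p = 0.149 against 82Q). The summed level of 7 endothelial markers was 233 to 263 CPM in 82Q_M120A, 204 to 230 CPM in 82Q and 203 to 225 CPM in WT. Of these markers, 1 was higher and 0 lower in 82Q_M120A against WT, and likewise against 82Q. Their part in the Fzd4 values was not tested. Of the co-receptors, Lrp6 was at 88.6 ± 2.75 CPM in 82Q_M120A, 91.3 ± 2.17 CPM in 82Q and 86.1 ± 3.14 CPM in WT, with a smallest adjusted p of 0.0664. Lrp5 was at 14.4 ± 0.751 CPM in 82Q_M120A, 13.9 ± 1.65 CPM in 82Q and 13.9 ± 0.696 CPM in WT, with a smallest adjusted p of 0.564.

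Of the 6 R-spondin and Lgr genes, 1 was higher and 4 lower in 82Q_M120A against WT, 3 were lower in 82Q against WT, and 1 was higher and 1 lower in 82Q_M120A against 82Q. Rspo3 (chr10:29452416-29535867), a secreted ligand of the Lgr receptors, had 4.48, 4.60, 4.05, 6.50 and 3.32 CPM in 82Q_M120A, 3.90, 3.91, 4.66, 4.56 and 4.24 CPM in 82Q, and 8.90, 8.82, 8.19, 8.60 and 7.91 CPM in WT. All libraries with the 82Q allele lay below WT, and those of 82Q_M120A were the more spread. The log2 fold change was -0.89 ± 0.13 (adjusted p = 2.82e-05) in 82Q_M120A against WT and -0.997 ± 0.13 (adjusted p = 1.55e-05) in 82Q against WT. An antisense gene, Gm48159, not analysed here, covers 13.1% of the Rspo3 exon bases, and with the strand setting not given its reads cannot be told apart from those of Rspo3. Rspo2 (chr15:43020794-43170826) was lower in 82Q_M120A, with 1.18, 1.35, 1.12, 1.23 and 1.45 CPM, against 2.06, 2.39, 1.73, 1.5 and 1.43 CPM in 82Q and 1.84, 1.37, 1.72, 1.95 and 1.92 CPM in WT. It passed against 82Q (-0.53 ± 0.14, adjusted p = 0.0149) and against WT (-0.47 ± 0.14, adjusted p = 0.0159), with 1 library of overlap in each.

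The 3 Lgr receptors did not move together. Lgr4 (chr2:109917647-110014257), the most abundant of them per length of exon, had 67.0, 68.4, 66.4, 67.3 and 74.3 CPM in 82Q_M120A, 50.7, 49.95, 56.7, 51.7 and 48.4 CPM in 82Q, and 55.8, 54.4, 57.6, 55.9 and 58.0 CPM in WT. Every 82Q_M120A library lay above every other library. Its log2 fold change was 0.29 ± 0.04 (adjusted p = 3.09e-05) against WT and 0.41 ± 0.04 (adjusted p = 1.31e-06) against 82Q. The lower call in 82Q against WT (-0.13 ± 0.04, adjusted p = 0.0358) was small, its groups overlapped, and it did not pass with library size as the only scaling (-0.08, adjusted p = 0.149). Lgr6 (chr1:134983301-135105276) had 2.82, 2.07, 2.33, 3.18 and 3.24 CPM in 82Q_M120A, 3.87, 2.98, 2.94, 3.12 and 3.07 CPM in 82Q, and 5.53, 5.63, 5.92, 3.96 and 5.08 CPM in WT. It was lower in 82Q_M120A against WT (-0.94 ± 0.13, adjusted p = 2.38e-05) and in 82Q against WT (-0.71 ± 0.13, adjusted p = 0.000744). Lgr5 (chr10:115450311-115587780), a stem cell marker in gut, was at 8.45 to 11.3 CPM in 82Q_M120A, 10.7 to 12.3 CPM in 82Q and 11.99 to 16.2 CPM in WT, and was lower in 82Q_M120A against WT (-0.44 ± 0.09, adjusted p = 0.000636). For Lgr5 in 82Q against WT the adjusted p was 0.0566.

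**Figure D3:**
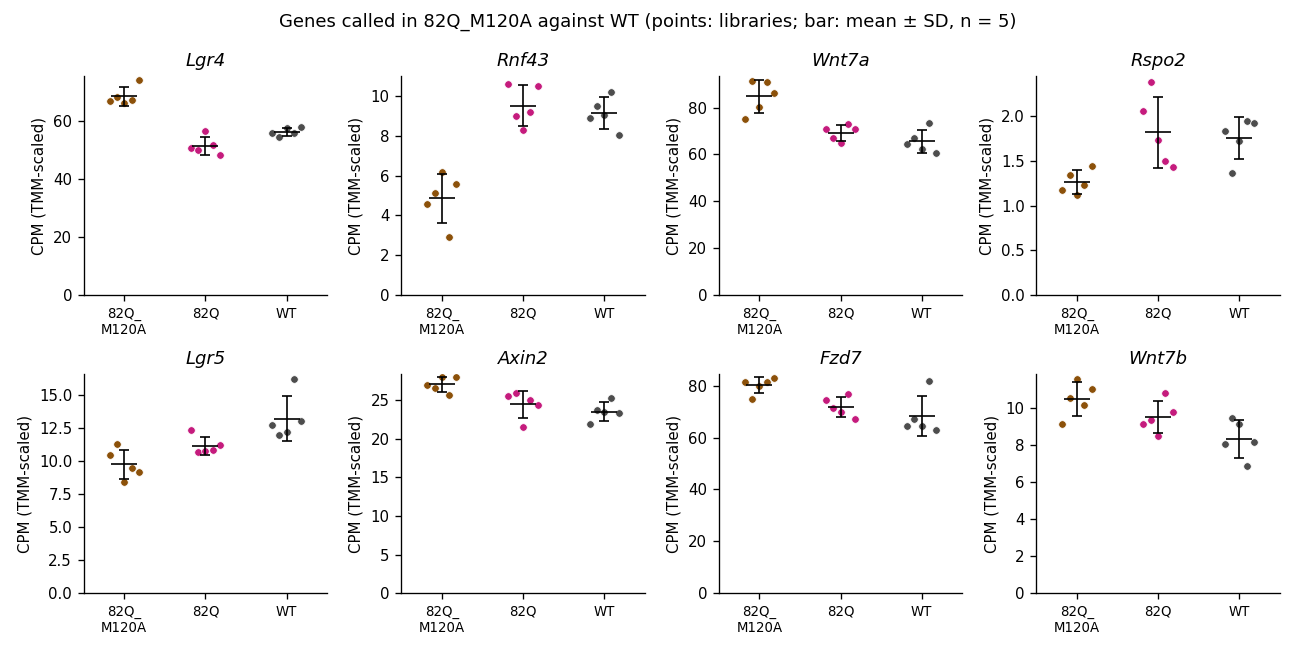
CPM in each library (points) of 8 Wnt genes called in 82Q_M120A against WT, with group means and SD, groups from left to right 82Q_M120A, 82Q and WT. Lgr4 is at 66.4 to 74.3 CPM in 82Q_M120A, above all other libraries, and Rnf43 is at 2.89 to 6.16 CPM, below all others.

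Of the 7 secreted inhibitors, 2 were lower in 82Q_M120A against WT, none was called in 82Q against WT, and 1 was lower in 82Q_M120A against 82Q. Sfrp1 (chr8:23411502-23449632), which binds Wnts outside the cell, had 10.99, 6.25, 6.63, 5.04 and 7.28 CPM in 82Q_M120A, 10.4, 20.6, 11.6, 10.3 and 17.6 CPM in 82Q, and 18.7, 23.5, 21.9, 12.2 and 18.4 CPM in WT. The highest Sfrp1 library of 82Q_M120A, the highest 2 of 82Q and the highest 4 of WT were those with Ttr at 1510 CPM or more. Against WT the log2 fold change in 82Q_M120A was -1.38 ± 0.26 (adjusted p = 0.00102), and it was -0.90 (adjusted p = 7.26e-06) with the choroid plexus score as a covariate. Against 82Q it was -0.96 ± 0.26 (adjusted p = 0.0208), and -0.66 (adjusted p = 0.000194) with the covariate; without 82Q-5 it did not pass (adjusted p = 0.0510). Among the 8 libraries with Ttr under 300 CPM the fold changes were -0.95 against WT and -0.77 against 82Q (adjusted p = 0.00391 and 0.00294).

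Wif1 (chr10:121033960-121100650), another Wnt-binding inhibitor, had 6.83, 2.0, 4.47, 8.87 and 5.89 CPM in 82Q_M120A, 8.07, 8.37, 9.03, 7.87 and 7.76 CPM in 82Q, and 10.6, 11.4, 11.6, 8.13 and 9.06 CPM in WT. The 82Q_M120A libraries spread more than 4-fold, and the highest of them overlapped WT. It was called lower in 82Q_M120A against WT (-0.86 ± 0.27, adjusted p = 0.0239), but not without WT-3 (adjusted p = 0.0501), without 82Q_M120A-3 (adjusted p = 0.0578) or with the choroid plexus covariate (-0.69, adjusted p = 0.101). Sfrp5 was called in no comparison and was at 0.952 to 1.32 CPM in 82Q_M120A, 0.951 to 2.83 CPM in 82Q and 1.24 to 2.40 CPM in WT. Its 2 highest 82Q libraries were again those with high Ttr. Dkk3, a Dickkopf relative that is abundant in brain, was at 22.5 ± 1.93 CPM in 82Q_M120A, 26.0 ± 2.63 CPM in 82Q and 24.4 ± 2.17 CPM in WT, with a smallest adjusted p of 0.0663.

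**Figure D4:**
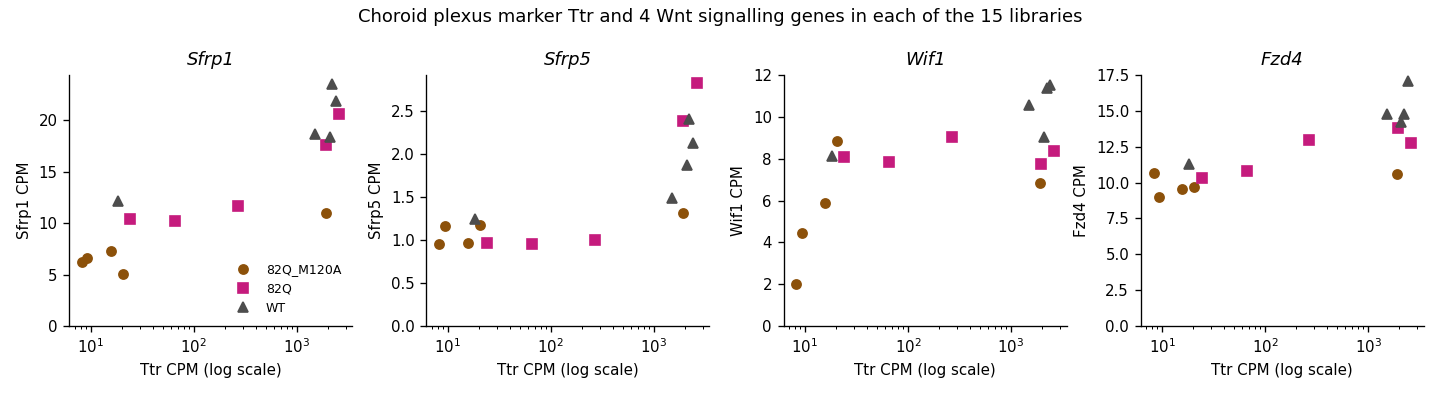
CPM of Sfrp1, Sfrp5, Wif1 and Fzd4 (vertical axes) against CPM of the choroid plexus transcript Ttr (horizontal log axis) in the 15 libraries, coloured by group. The highest 4 WT libraries for Sfrp1, at 18.4 to 23.5 CPM, are those with Ttr at 1510 CPM or more, and WT-4, with 18.3 CPM of Ttr, is at 12.2 CPM.

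Both enzymes that inactivate Wnts were lower in both groups with the 82Q allele. Trabd2b (chr4:114406724-114615098), a membrane-bound protease that cuts Wnt proteins, had 6.87, 6.10, 3.77, 6.79 and 9.16 CPM in 82Q_M120A, 3.12, 4.83, 4.25, 3.56 and 4.66 CPM in 82Q, and 37.3, 32.3, 35.0, 35.6 and 35.9 CPM in WT. Neither group came near WT, and 4 of the 5 82Q_M120A libraries lay above all 5 82Q libraries. The log2 fold change was -2.43 ± 0.18 (adjusted p = 1.02e-07) in 82Q_M120A against WT and -3.11 ± 0.19 (adjusted p = 1.51e-08) in 82Q against WT. Between the groups with the allele, Trabd2b was higher in 82Q_M120A than in 82Q (0.68 ± 0.18, adjusted p = 0.0189). Of the 45 genes, Trabd2b and Lgr4 were the only ones called lower in 82Q against WT and higher in 82Q_M120A against 82Q, and Lgr4 in 82Q_M120A was above WT. In level, Trabd2b in 82Q_M120A stayed far below WT, at 6.54 ± 1.93 CPM against 35.2 ± 1.85 CPM. The Purkinje markers moved with Trabd2b in both comparisons with WT, with a median log2 fold change of -1.11 in 82Q_M120A and -1.25 in 82Q. In 82Q_M120A against 82Q that median was 0.04, with 2 of 12 markers called higher and 0 lower. The part of the Purkinje markers in the Trabd2b values was not tested.

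Notum (chr11:120653788-120661175), a secreted enzyme that takes the lipid off Wnts, had 2.46, 2.37, 2.81, 2.37 and 2.69 CPM in 82Q_M120A, 3.04, 2.62, 2.04, 2.36 and 2.17 CPM in 82Q, and 3.34, 3.49, 3.55, 4.53 and 3.96 CPM in WT. Both groups lay below WT without overlap. Relative to WT, the log2 fold change was -0.57 ± 0.11 (adjusted p = 0.000673) in 82Q_M120A against WT and -0.62 ± 0.11 (adjusted p = 0.000588) in 82Q against WT. An antisense gene, Notumos, not analysed here, covers 29.4% of the Notum exon bases, so its reads and those of Notum cannot be told apart.

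Of the 3 feedback regulators, Rnf43 was lower and Axin2 higher in 82Q_M120A, and Znrf3 was called in no comparison. Rnf43 (chr11:87662722-87735539), a ubiquitin ligase that removes Frizzleds, had 4.57, 5.12, 6.16, 2.89 and 5.56 CPM in 82Q_M120A, 10.6, 8.98, 8.28, 9.21 and 10.5 CPM in 82Q, and 8.91, 9.49, 9.03, 10.2 and 8.02 CPM in WT. Every 82Q_M120A library lay below every other library, and 82Q and WT overlapped. On the log2 scale, the difference was -0.91 ± 0.15 (adjusted p = 0.000148) against WT and -0.97 ± 0.15 (adjusted p = 0.000221) against 82Q. Znrf3, its relative with the same role, was at 17.6 ± 1.26 CPM in 82Q_M120A, 17.5 ± 0.680 CPM in 82Q and 17.3 ± 0.883 CPM in WT. Axin2 (chr11:108920349-108950783), a scaffold of the beta-catenin destruction complex and a widely used Wnt target gene, was at 25.7 to 28.0 CPM in 82Q_M120A, 21.5 to 26.0 CPM in 82Q and 21.8 to 25.3 CPM in WT. It was higher in 82Q_M120A against WT (0.20 ± 0.05, adjusted p = 0.00482), with an adjusted p of 0.0556 against 82Q and of 0.492 for 82Q against WT.

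Of the 37 calls given above, 33 also passed with any single library left out. Restricted to the 8 libraries with Ttr under 300 CPM, which hold 1 WT library that is assumed to vary like the others, 19 of the 37 passed. Those of Trabd2b, Wnt16, Wnt3, Fzd10 and Notum against WT and of Lgr4, Wnt7a, Rnf43 and Sfrp1 in 82Q_M120A against 82Q were among the 19. Of the calls not among them, some kept their size: Rspo3 was at -0.90 (adjusted p = 0.0724) in 82Q_M120A and -0.98 (adjusted p = 0.122) in 82Q against WT, Rspo2 at -0.60 (adjusted p = 0.113) against WT and -0.45 (adjusted p = 0.102) against 82Q in 82Q_M120A, and Trabd2b at 0.82 (adjusted p = 0.139) in 82Q_M120A against 82Q. Others were smaller: Lgr6 was at -0.55 (adjusted p = 0.195) in 82Q_M120A and -0.26 (adjusted p = 0.713) in 82Q against WT, beside the Fzd4 and Fzd7 values above. The calls of Rnf43 (-1.04, adjusted p = 0.0791), Wnt7a (0.25, adjusted p = 0.0975), Axin2 and Wif1 in 82Q_M120A against WT and of Fzd9 (0.41, adjusted p = 0.102), Wnt9a, Fzd3 and Lgr4 in 82Q against WT did not pass there either.

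Per kilobase of exon, a scale on which genes can be compared, Fzd1 led in WT at 25.1 CPM per kb, followed by Wnt7a at 20.7, Fzd7 at 15.05 and Lgr4 at 9.58 CPM per kb. In 82Q_M120A and 82Q, Wnt7a was at 26.7 and 21.8 CPM per kb and Fzd1 at 24.1 and 24.9 CPM per kb. Trabd2b stood ninth of the 45 in WT, at 5.32 CPM per kb, and was at 0.988 CPM per kb in 82Q_M120A and 0.617 in 82Q. Wnt8b was lowest in WT, at 0.0256 CPM per kb. The 7 genes lower in both groups with the 82Q allele ranged in WT from Wnt3 at 6.49 to Fzd10 at 0.678 CPM per kb.

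**Figure D5:**
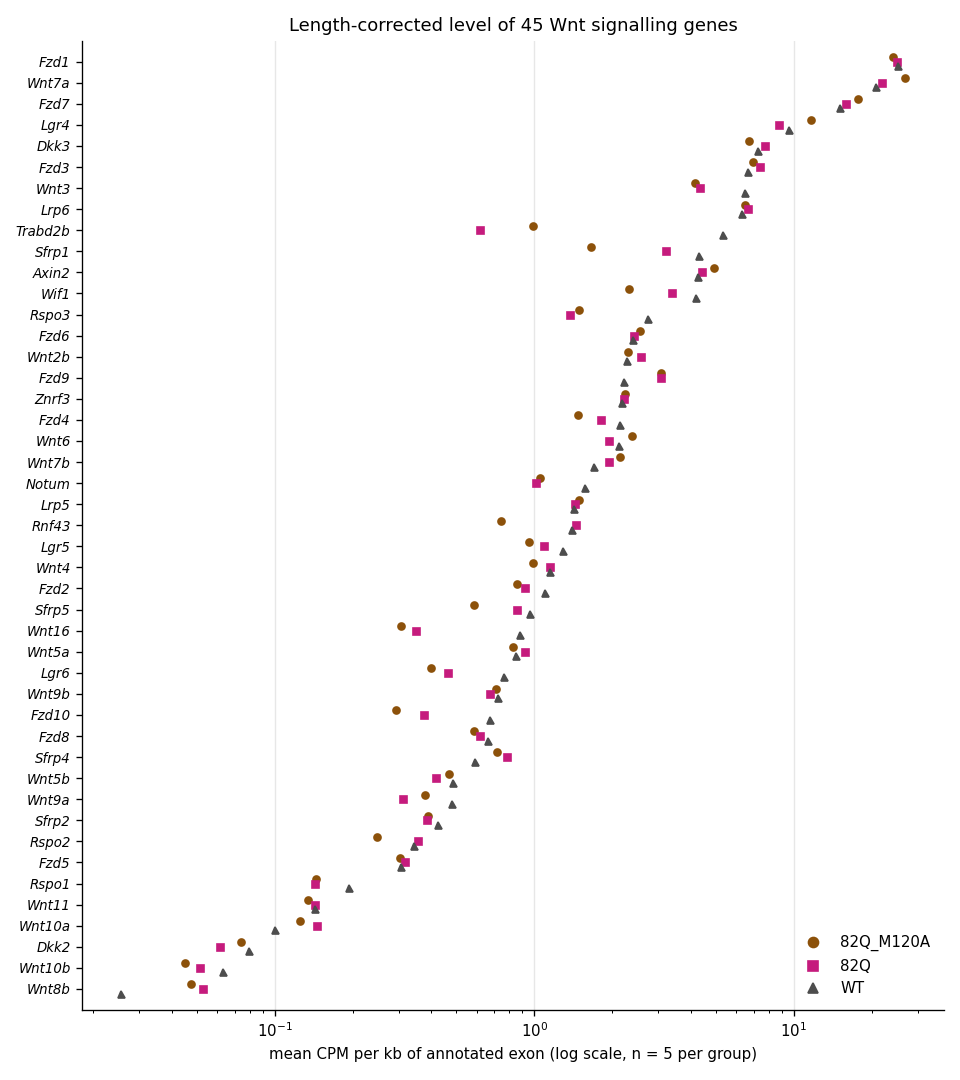
Mean level of the 45 Wnt genes in CPM per kb of exon (log axis) in 82Q_M120A, 82Q and WT, ordered by the WT level. Fzd1 is at the high end at 25.1 CPM per kb in WT and Wnt8b at the low end, and Trabd2b is the gene whose groups lie farthest apart.

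Other genes of the pathway were read from 4 lists with 104 genes in all. Of these, 33 were called in 82Q_M120A against WT (31.7%; 16 higher, 17 lower), 16 in 82Q against WT (15.4%; 9 higher, 7 lower) and 18 in 82Q_M120A against 82Q (17.3%; 9 higher, 9 lower), each below the background share of all genes. With library size as the only scaling, 20 of 22 called genes were higher in 82Q against WT and 30 of 45 in 82Q_M120A against WT, so the split between higher and lower calls in these lists rests on how the libraries were scaled.

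Among 25 genes of Wnt secretion and ligand handling, 3 were higher and 6 lower in 82Q_M120A against WT, 2 were higher and 4 lower in 82Q against WT, and 2 were higher and 1 lower in 82Q_M120A against 82Q. The shares called were 36%, 24% and 12%, in that order, beside 36.4%, 18.7% and 18.9% of all tested genes. Cthrc1, a secreted partner of Wnt receptor complexes, averaged 5.97 ± 0.486 CPM in 82Q_M120A, 6.30 ± 0.295 CPM in 82Q and 9.53 ± 0.809 CPM in WT, with log2 fold changes of -0.67 ± 0.07 (adjusted p = 7.55e-07) and -0.59 ± 0.07 (adjusted p = 5.98e-06) against WT. Wls, the carrier that takes Wnts to the cell surface, averaged 39.5 ± 5.42 CPM in 82Q_M120A, 44.9 ± 6.34 CPM in 82Q and 57.0 ± 6.13 CPM in WT. It was lower in 82Q_M120A (-0.53 ± 0.11, adjusted p = 0.00150) and in 82Q (-0.34 ± 0.11, adjusted p = 0.0385) against WT. Its values also followed Ttr, and with the choroid plexus score as a covariate they were -0.31 (adjusted p = 0.000214) and -0.26 (adjusted p = 0.000752). Gpc4, a glypican that binds Wnts, averaged 3.31 CPM in 82Q_M120A and 3.55 CPM in 82Q, against 4.88 CPM in WT, and was lower in both (adjusted p = 0.00137 and 0.0115). The high-Ttr libraries 82Q_M120A-1, 82Q-2 and 82Q-5 had the highest Gpc4 of their groups (3.83, 4.48 and 3.78 CPM). Low-Ttr WT-4 had the lowest Gpc4 of WT (4.13 CPM), and no value with the covariate is given for this gene. Apoe, the lipid carrier of astrocytes and microglia, was higher in both groups against WT (0.35 ± 0.05 and 0.40 ± 0.05, adjusted p = 7.45e-05 and 2.79e-05).

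Among 40 genes of the beta-catenin cascade, 5 were higher and 4 lower in 82Q_M120A against WT, 2 were higher and 3 lower in 82Q against WT, and 3 were higher and 2 lower in 82Q_M120A against 82Q. These were 22.5%, 12.5% and 12.5% of the list, beside 36.4%, 18.7% and 18.9% of all tested genes. The changes were small: Csnk1g1, a casein kinase 1 isoform, was lower in 82Q_M120A, with a log2 fold change of -0.28 ± 0.05 (adjusted p = 0.000307) against WT and of -0.34 ± 0.05 (adjusted p = 0.000129) against 82Q. Among 26 genes of the beta-catenin-independent branch, 5 were higher and 7 lower in 82Q_M120A against WT, 2 were higher in 82Q against WT, and 1 was higher and 3 lower in 82Q_M120A against 82Q. Calls made up 46.2%, 7.69% and 15.4% of this list, beside 36.4%, 18.7% and 18.9% of all tested genes. The Wnt-binding receptor tyrosine kinases Ror1 and Ryk were both lower in 82Q_M120A against WT (-0.52 ± 0.09 and -0.17 ± 0.03; adjusted p = 0.000236 and 0.000279). Nfatc2, a calcium-regulated transcription factor, averaged 20.2 CPM in 82Q_M120A, against 12.1 CPM in 82Q and 12.1 CPM in WT (0.74 ± 0.14 against 82Q, adjusted p = 0.00158). That mean was raised by 82Q_M120A-2, at 30.5 CPM. The rest of the group, at 15.3 to 19.1 CPM, still lay above every 82Q and WT library. Daam2, a formin that binds Dishevelled, averaged 159 CPM in 82Q_M120A, against 235 CPM in 82Q and 217 CPM in WT (-0.56 ± 0.09 against 82Q, adjusted p = 0.000411).

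Among 18 Wnt target genes, 5 were higher in 82Q_M120A against WT (27.8%, beside 36.4% of all tested genes). In 82Q against WT, 3 were higher (16.7%, beside 18.7%). In 82Q_M120A against 82Q, 4 were higher and 3 lower (38.9%, beside 18.9%). The difference in these shares was not tested. None of the Wnt genes described above is in this list, so its calls leave them out. Of the 3 feedback regulators among them, Axin2 was called higher, Rnf43 lower and Znrf3 not called in 82Q_M120A against WT. Ccnd1, which encodes cyclin D1, had 58.5, 61.7, 57.0, 60.9 and 64.5 CPM in 82Q_M120A, 39.8, 39.4, 39.3, 41.7 and 37.5 CPM in 82Q, and 25.3, 29.4, 29.0, 27.3 and 24.4 CPM in WT. The 3 groups did not overlap. Its log2 fold change was 1.16 ± 0.05 (adjusted p = 1.77e-11) in 82Q_M120A against WT, 0.55 ± 0.05 (adjusted p = 2.50e-07) in 82Q against WT and 0.61 ± 0.05 (adjusted p = 1.27e-07) in 82Q_M120A against 82Q. Cd44, a hyaluronan receptor, averaged 11.6 CPM in 82Q_M120A and 8.74 CPM in 82Q, against 6.08 CPM in WT, and was called higher in all 3 comparisons. For Cd44, 82Q_M120A-1, at 8.33 CPM, lay below every 82Q library (8.41 to 8.97 CPM). Fgf20, a growth factor gene, averaged 0.266 CPM in 82Q_M120A, 0.651 CPM in 82Q and 0.268 CPM in WT. It was higher in 82Q against WT (1.29 ± 0.27, adjusted p = 0.00257) and lower in 82Q_M120A against 82Q (-1.29 ± 0.26, adjusted p = 0.00217). These genes have other regulators as well, so their levels are given beside the Wnt genes and not as a readout of them.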

How the data were processed

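The deposited table holds counts of reads per gene symbol, not normalized, for 24420 symbols in 15 columns. Per the submitters' processing notes, the reads were handled with CASAVA 1.8 and HISAT2 2.0.1 on mm10, with featureCounts of Subread for counting, and R 3.3.3 with DESeq2 1.14.1 was also named. Which annotation and strand setting were chosen, and what was done with multi-mapping reads, is not given in the sources. Per the labels' protocols, RNA was taken from dissected cerebellum and sequenced from TruSeq libraries. The columns name the group but match no single sample label, so a library is named by its group and its place among that group's columns (WT-4 is the WT column in place 4).

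The counts went into 1 quasi-likelihood model of the 3 groups in edgeR 4.0.16 (with limma 3.58.1, in R 4.3.3), with TMM scaling and the default low-count filter, which kept 16808 genes and left 7612 untested. Tests were two-sided, adjusted by Benjamini-Hochberg over all tested genes and called under 0.05. There were 12 residual degrees of freedom, and the common biological coefficient of variation was 0.105. The SE was approximated by dividing the log2 fold change, without its sign, by the root of F. The script was tested on simulated data. With 38322749 to 99422994 counts per library, precision is limited by counting error for genes under 1 CPM. Gene positions and exon lengths are from GENCODE M21 on GRCm38, which is mm10. For the choroid plexus score, the log2 CPM of its markers (prior count 2) were averaged in each library.

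The genes, the lists and the markers were chosen with earlier results of these data known. Every gene with at least 50 counts could be named; full values are given for called genes with one of the 6 smallest adjusted p of a comparison or an absolute log2 fold change of at least 0.5, and others were added after their values were seen. From other pathway lists, up to 4 called genes with the smallest adjusted p could be named, and fewer are printed. As alternatives, each library was left out in turn, the compared groups were fitted alone, the filter was dropped or replaced by a 1 CPM mean, TMM was replaced by RLE or by library size, the threshold was set to 0.01, and DESeq2 1.42.0 and limma-voom took the place of edgeR. A choroid plexus covariate and a restriction to libraries with Ttr under 300 CPM were added after seeing the data.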

Additional observations from a re-analysis of the deposited data

Results flagged for a closer look

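In 10 of 135 checks of a Wnt gene within a group, 1 library stood apart from the other 4 of its group by Dixon's criterion; chance alone flags about 1 in 20. In 82Q_M120A-5, Fzd10 was at 1.25 CPM (others 0.816 to 0.923) and Lgr4 at 74.3 CPM (others 66.4 to 68.4). In 82Q_M120A-4, Fzd2 was at 2.16 CPM (others 3.13 to 3.52). In 82Q-1, Lgr6 was at 3.87 CPM (others 2.94 to 3.12), and in 82Q-2, Wnt11 was at 0.515 CPM (others 0.598 to 0.631). In WT-2, Fzd2 was at 5.82 CPM (others 3.29 to 3.96), Wnt4 at 6.90 CPM (others 4.09 to 4.64) and Wnt5a at 8.27 CPM (others 5.90 to 6.50). WT-2 also had the highest sum of meninges and fibroblast markers in WT, 407 CPM. In WT-4, the WT library with low Ttr, Fzd7 was at 81.9 CPM (others 62.9 to 67.1) and Lgr5 at 16.2 CPM (others 11.99 to 13.05). The cause was not tested for any of them.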

How the results depend on the processing

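Of the 37 calls of Wnt genes, 37 held with DESeq2, with RLE factors and with a mean of at least 1 CPM, 36 each with limma-voom, library size only, no low-count filter and the compared groups alone, and 35 with the choroid plexus covariate. Leaving out 1 library at a time gave 10 to 14 called Wnt genes in 82Q against WT, 18 to 22 in 82Q_M120A against WT and 6 to 9 in 82Q_M120A against 82Q. The same gave 2567 to 3319, 5450 to 6454 and 2562 to 3210 called genes of all, and 10 to 18, 29 to 37 and 13 to 22 genes of the other pathway lists; the lowest of these, 10 against 16 in 82Q against WT, came without WT-2 or without 82Q-3. The calls lost were Fzd4 in 82Q_M120A against 82Q in 9 of 15 fits, Lgr4 in 82Q against WT in 8, Wif1 in 2 and Sfrp1 in 1. In the 8 libraries with Ttr under 300 CPM, 5 Wnt genes were called in 82Q against WT and 10 in 82Q_M120A against WT; all-gene counts were 636, 1891 and 1440 and counts of the other lists 3, 13 and 8, in 82Q against WT, 82Q_M120A against WT and 82Q_M120A against 82Q. That setting has fewer samples, and Fzd7 in 82Q_M120A against WT reversed to -0.0372 in it. At an adjusted p under 0.01, 3 Wnt genes were called in 82Q_M120A against 82Q; all-gene counts were 1823, 4060 and 1645, and the other lists had 6 in 82Q against WT and 8 in 82Q_M120A against 82Q. Higher calls made up 18.2% of the Wnt gene calls and 46.2% of all calls in 82Q against WT, and 33.3% and 73.0% with library size only. No paired analysis was possible because the columns carry no replicate number that a label gives, so the replicate block was not run. Wnt8b, Wnt10b and Dkk2 had 2 to 34 counts a library, which limits what can be detected in them.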
